A study of Petunia x hybrida with 6 samples.

Results

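The transcripts described here are those whose level in petunia corollas was several times higher after the flower had opened than in the bud. They were found among the 80785 components into which the Trinity assembler had grouped its contigs, a component being the set of assembled sequences that share an identifier and roughly stand for a gene or a few related genes. Levels are in CPM, here scaled counts per 1000000 counts of the mean library total. A component was a member where it reached 10 CPM in every day 2 library and where its day 2 mean was at least 8 times its bud mean. This gave 198 members of the 80785 components, and of the 7188 components that reached the floor of 10 CPM in every day 2 library they were 2.75%. The day 2 and bud values chose the members, so their ratios are given as a description and not as a test.

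Corollas, the petal tissue of the flower, came from wild-type *Petunia hybrida* of the cultivar Mitchell diploid, on day 2 postanthesis (3 libraries) and at the bud stage (3 libraries). Both stages share the genotype and the tissue, no treatment was applied, and each biological replicate pooled the corollas of several flowers. Libraries summed to 96184358 to 111398763 counts on day 2 and to 87419488 to 106341976 counts in buds. The deposited counts name contigs by number, so no member is given a gene name or a function, and the tissue was not checked against marker genes.

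A petunia corolla grows and unfolds as the bud opens and then takes up its role in attracting pollinators. Open flowers of this species release volatiles derived from phenylalanine in the evening and at night, and the genes for making phenylalanine and turning it into scent are known to be more strongly expressed after opening than in the bud. The study sequenced both stages to look for further genes with that behaviour. Its 3 homologues of a bacterial phenylalanine transporter were matched here to components by contig number alone. They are comp21511 (ratio 2.47), comp18042 (ratio 2.34) and comp19221 (ratio 0.469), and none is a member. In the paper's own values, scaled otherwise and for single contigs, the first pair rose and was kept as candidates, whereas the last fell.

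The members took a visible share of the RNA of the open corolla. Together they made up 11.0, 10.4 and 10.3% of the scaled counts in the day 2 libraries, against 0.928, 0.955 and 1.24% in the bud libraries. Because whole corollas were sequenced, more cells that make a transcript and more of it per cell cannot be told apart. The day 2 means ran from 11.5 to 29029 CPM with a median of 47.2 CPM, and the bud means from 0.00613 to 2183 CPM with a median of 2.98 CPM. Most members were thus of modest abundance, with 137 below 100 CPM on day 2, 61 at or above 100 CPM and 20 at or above 1000 CPM. A few carried most of the sum, the highest member alone holding 23.9% of it, the highest 3 holding 46.5% and the highest 10 holding 68.7%.

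**Figure D1:**
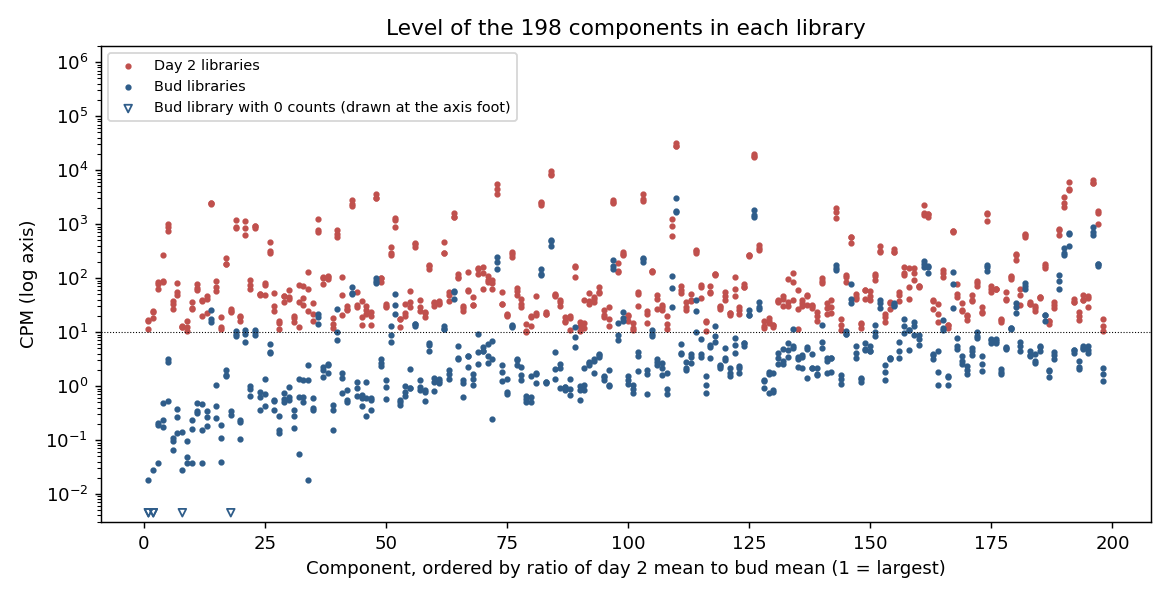
Level of each of the 198 members in the 3 day 2 libraries (red) and the 3 bud libraries (blue), in CPM on a log axis, ordered from the largest to the smallest ratio of means; triangles mark bud libraries with 0 counts and the dotted line the floor of 10 CPM. The day 2 points lie above the bud points of the same member throughout, and bud levels climb from left to right as the ratio falls.

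No member had a bud library as high as one of its day 2 libraries. The stages failed to overlap in 198 of 198 members, and in the same direction in 53.6% of the components at the floor. The rule used these values, so the count is a description. In the tightest case, comp15486, the lowest day 2 library was 3.40 times the highest bud library, and in 126 members it was at least 8 times as high. The edgeR quasi-likelihood test called 198 of 198 members higher on day 2 at a Benjamini-Hochberg adjusted p below 0.05, against 29.0% of the 24677 components tested, and nothing is read from this because it tests the contrast that chose them.

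**Figure D2:**
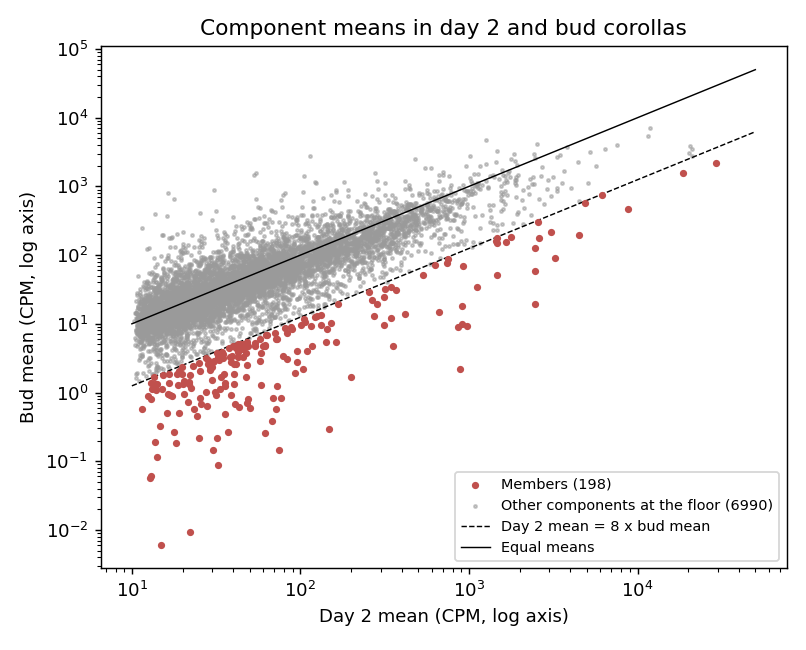
Day 2 mean (horizontal) against bud mean (vertical) of every component at the floor, in CPM on log axes, with members in red and the other 6990 components in grey; the dashed line marks a ratio of 8 and the solid line equal means. Members form the lower edge of the cloud at all levels of abundance and are not separated from it by a gap.

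To compare abundance between members, counts were divided by contig length, as CPM per kilobase summed over the contigs of a component. On this scale comp20083 stood first. It had 13026, 11437 and 11476 CPM per kilobase in the day 2 libraries, against 729.7, 778.1 and 1311 CPM per kilobase in the bud libraries. All day 2 values lay far above all bud values, and bud replicate 3 stood above the other buds. The next member, comp18472, averaged 4425 ± 436 CPM per kilobase on day 2 and 233 ± 29.8 CPM per kilobase in buds (SD, n = 3 each). For comp17126 the means were 3769 ± 270 CPM per kilobase on day 2 and 313 ± 51.1 CPM per kilobase in buds. The day 2 level of comp20083 therefore exceeded that of these neighbours by more than the spread between libraries. By contrast, comp18472 and comp17126 differed by less than the sum of their SDs. The SDs do not cover reads that may be counted on several contigs, and comp20083 was summed over many contigs.

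Further down this order came comp16720, with 3293 ± 259 CPM per kilobase on day 2 and 404 ± 72.0 CPM per kilobase in buds. The fifth, comp18100, averaged 2514 ± 242 CPM per kilobase on day 2 and 81.9 ± 8.54 CPM per kilobase in buds, the lowest bud level of these 5. The sixth, comp17220, had 1985 ± 284 CPM per kilobase on day 2 and 143 ± 13.6 CPM per kilobase in buds. The last of the 8 most abundant were comp13537, at 1700 ± 120 CPM per kilobase on day 2 and 88.2 ± 12.1 CPM per kilobase in buds, and comp17877, at 1545 ± 199 CPM per kilobase on day 2 and 41.3 ± 7.82 CPM per kilobase in buds. From comp17220 to comp17877 neighbours in this order differed by less than the sum of their SDs, as did comp17126 and comp16720, whereas comp16720 stood clear of comp18100, and comp18100 exceeded comp17220 by little more than that sum. All 8 were well measured in buds too, at 2.80% (comp18100) to 12.2% (comp16720) of their day 2 CPM.

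The ratio of means had a median of 14.7, and quartiles of 10.2 and 33.5. A ratio below 16 was found for 107 members, 91 reached 16, 53 reached 32, 31 reached 64 and 10 reached 200. The smallest ratios sat at the limit of the rule. For comp14995 the day 2 libraries had 17.1, 10.6 and 12.7 CPM, against 2.12, 1.23 and 1.69 CPM in the bud libraries (ratio 8.03). The ratios of comp20163, comp16720, comp5150 and comp9052 were 8.12, 8.17, 8.24 and 8.28. Just outside lay comp18553 (ratio 7.96), comp13047 (ratio 7.93) and comp17851 (ratio 7.93). Of components with a sufficient ratio, those that missed the floor by least were comp13491, whose lowest day 2 library had 9.80 CPM, comp25615 with 9.56 CPM and comp23803 with 9.42 CPM. The last of these had a ratio of 117.9, so that membership at low abundance turned on a single library.

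The bud level of members was low against day 2 but seldom nil. The median member stood at 6.81% of its day 2 mean in buds, with quartiles of 2.99 and 9.79%. Bud means were below 1 CPM in 44 members, between 1 and 10 CPM in 110, and at 10 CPM or more, the level set as the floor on day 2, in 44. The highest bud means were not low, at 2183 CPM in comp20083 and 1542 CPM in comp17126. No member lacked counts in all 3 bud libraries, only 4 had a 0 in any, and 194 had at least 30 bud counts in sum. For nearly all members the bud level is thus a measured value and not the limit of the depth.

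At the extreme were a pair of members with almost no bud counts. The single contig of comp9564, of 4583 bp, had 1435, 1677 and 948 counts in the day 2 libraries, against 2, 0 and 0 counts in the bud libraries. Its ratio was 2416, with an exact Poisson 95% interval of 669 to 19947 that covers only the counting error of the bud counts. The single contig of comp22825, of 1390 bp, had 2115, 2435 and 1514 counts on day 2, against 3, 0 and 0 counts in buds. Its ratio was 2411 (exact Poisson interval 825 to 11691). The intervals overlap, so the order of these members is not resolved by their counts.

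Next came comp13220, with 83.5, 77.3 and 62.2 CPM on day 2, against 0.0368, 0.205 and 0.191 CPM in buds (ratio 515). Its bud counts were 4, 21 and 24, lowest in replicate 1. The fourth ratio belonged to comp3202, with 89.2, 268.0 and 84.5 CPM on day 2, against 0.175, 0.234 and 0.478 CPM in buds (ratio 498). Day 2 replicate 2 alone lifted its mean. The fifth was comp19098, which had 892.0, 997.4 and 759.1 CPM on day 2, against 0.533, 2.78 and 3.20 CPM in buds (ratio 407). It combined a high day 2 level with a bud level of 0.246% of that level, and bud replicate 1 again held the least.

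A ratio of 64 or more together with a day 2 mean of 100 CPM or more was reached by 8 members. Apart from comp3202 and comp19098 these were comp13138, comp8418, comp12927, comp19509, comp13524 and comp9907, which were named after their values were seen. The most abundant was comp13138, at 2457 ± 93.3 CPM on day 2 and 19.3 ± 5.14 CPM in buds (SD, n = 3 each). Its day 2 libraries agreed closely, with a coefficient of variation (CV, the SD as a percent of the mean) of 3.80%.

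Members varied more between replicates than other components did. Over the 3 day 2 libraries the median CV of members was 15.9%, with quartiles of 9.87 and 23.6%, against a median of 7.67% and quartiles of 4.77 and 11.9% in the 6990 other components that passed the same floor. Counting error alone would give a median CV of 1.53% in members and 1.62% in the others. The difference was present at each level of abundance. From 10 to 100 CPM the median CV was 17.7% in 137 members and 7.94% in 5198 others, from 100 to 1000 CPM it was 13.3% in 41 members and 7.003% in 1665 others, and at 1000 CPM or more it was 11.7% in 20 members and 7.10% in 127 others. Among the others the median day 2 CV also differed with the ratio, at 6.90% from 1 to 2, 10.3% from 4 to 8 and 10.9% below 0.5. In members with a ratio from 8 to 16 it was 14.5%. A larger spread beside a large stage difference was thus not particular to members. These medians describe components and are not a test, since components are not replicates. Left with 2 day 2 libraries the median of members was 11.8 to 13.6%. A median CV over fewer libraries tends to be lower, so this range is not directly comparable with 15.9%.

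**Figure D3:**
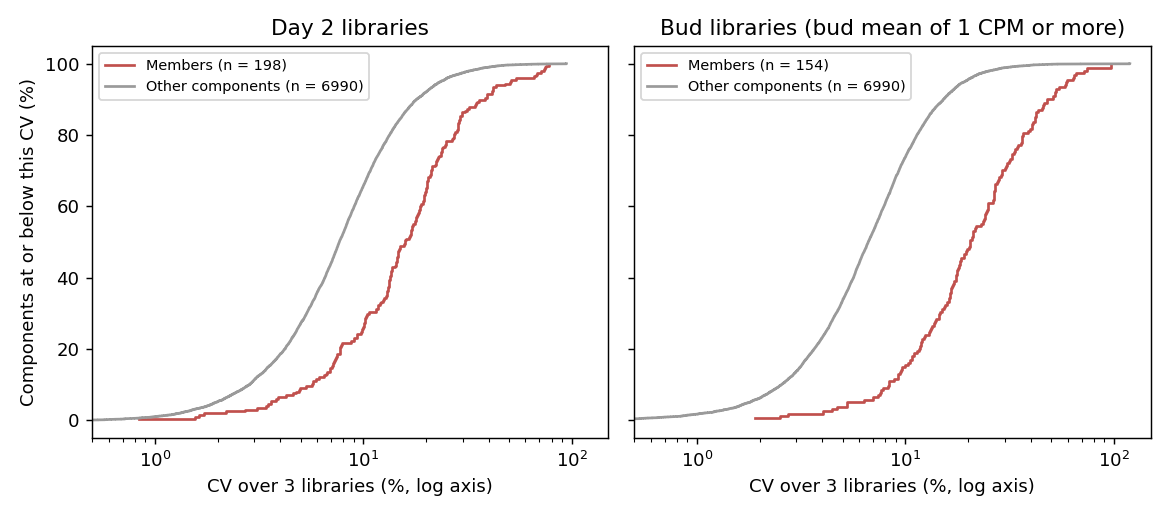
Cumulative share of components (vertical, %) at or below a given CV over 3 libraries (horizontal, log axis), for the day 2 libraries at left and, for components of at least 1 CPM in buds, the bud libraries at right, with members in red and other components at the floor in grey. The curve of members lies to the right of that of the others in both stages, with medians of 15.9% and 7.67% on day 2.

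A high spread was not common to all members. A CV below 10% on day 2 was found in 52 members (26.3%) and in 65.8% of the others, and a CV of at least 30% in 27 members (13.6%) and in 2.53% of the others. The most even was comp9759, with 62.3, 61.7 and 62.7 CPM on day 2, against 6.24, 6.87 and 7.50 CPM in buds. The day 2 CV was 0.840% there, 1.56% in comp10922 and 1.62% in comp9330. At the other end stood comp15319, with 35.4, 75.8 and 12.3 CPM on day 2, against 0.0552, 0.634 and 1.36 CPM in buds (day 2 CV 78.1%).

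The most variable members shared one order of the day 2 libraries. After comp15319 they were comp16580, comp15486 and comp19820. The day 2 libraries of comp16580 had 61.8, 132.2 and 24.2 CPM, against 0.0184, 1.31 and 2.45 CPM in its bud libraries. Those of comp15486 had 27.3, 59.4 and 11.6 CPM, against 2.23, 3.23 and 3.40 CPM in buds. In comp19820 they had 49.0, 104.5 and 20.8 CPM, against 0.736, 1.39 and 1.74 CPM in buds. In each of these 4 members day 2 replicate 2 was highest and replicate 3 lowest, and the excess of replicate 2 over replicate 1 was 2.14, 2.14, 2.18 and 2.13 times in comp15319, comp16580, comp15486 and comp19820. No contig is shared between components, but whether the sequences are related was not analysed here.

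Single libraries stood out more often among members. Day 2 replicate 2 was at least 1.5 times both other day 2 libraries in 12 members (6.06%) and in 0.844% of the other components. For day 2 replicate 1 this held in 7 members (3.54%) and 0.386% of the others, and for day 2 replicate 3 in 6 members (3.03%) and 0.801% of the others. In comp3202 the excess of replicate 2 appeared in both of its subcomponents, which had 80.4, 240.9 and 75.5 CPM and 8.82, 27.1 and 9.05 CPM in the day 2 libraries. The excess was therefore not confined to one assembled sequence.

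Among the bud libraries, members leaned towards replicate 3. It was the highest bud library in 126 of 198 members (63.6%), against 38.6% of the other components, and the lowest in 24 members (12.1%), against 29.0% of the others. Among others with a ratio from 4 to 8, just below that of members, replicate 3 was highest in 61.7%. It reached 1.5 times both other buds in 36 members (18.2%) and in 0.443% of the others. Bud replicates 1 and 2 did so in 5 members each (2.53% each), and in 0.114% and 0.200% of the others. With scaling by the total count alone, replicate 3 was highest in 124 members and in 34.0% of the others. At a bud mean from 1 to 10 CPM, which holds most members, it was highest in 72 of 110 members (65.5%) and in 49.4% of 599 others. From 10 to 100 CPM it was highest in 20 of 29 members and in 36.7% of 4708 others. At a bud mean of 100 CPM or more, where counting error is small, it was highest in 11 of 15 members and in 40.0% of 1683 others.

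The size of this lean, though not its frequency, was larger in each higher band of the ratio. Bud replicate 3 was highest in 63.6% of members at a ratio from 8 to 16 and in 70.0% from 16 to 64. At 64 or more it was highest in 55.6% of the 27 members with no count of 0. Of the 4 members left out there, only comp18935 had its highest bud level in replicate 3. Among the other components replicate 3 was highest in 20.6% at a ratio below 0.5 and in 40.7% from 1 to 2. From 2 to 4 it was highest in 53.4%, and from 4 to 8 in 61.7%. Where the day 2 mean was below 0.5 times the bud mean, the median log2 difference of bud replicate 3 from the mean of the buds was -0.05 (603 components). At a ratio from 1 to 2 the median difference was 0.02 (3239 components), from 4 to 8 it was 0.11 (308 components), from 8 to 16 it was 0.19 (107 members), from 16 to 64 it was 0.28 (60 members) and at 64 or more it was 0.36 (27 members with no count of 0). Day 2 replicate 1 moved the same way on a smaller scale, at -0.05, 0.01, 0.04, 0.06, 0.09 and 0.11 over the same bands. Bud and day 2 values enter both the ratio and these differences, so the trend is a description.

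**Figure D4:**
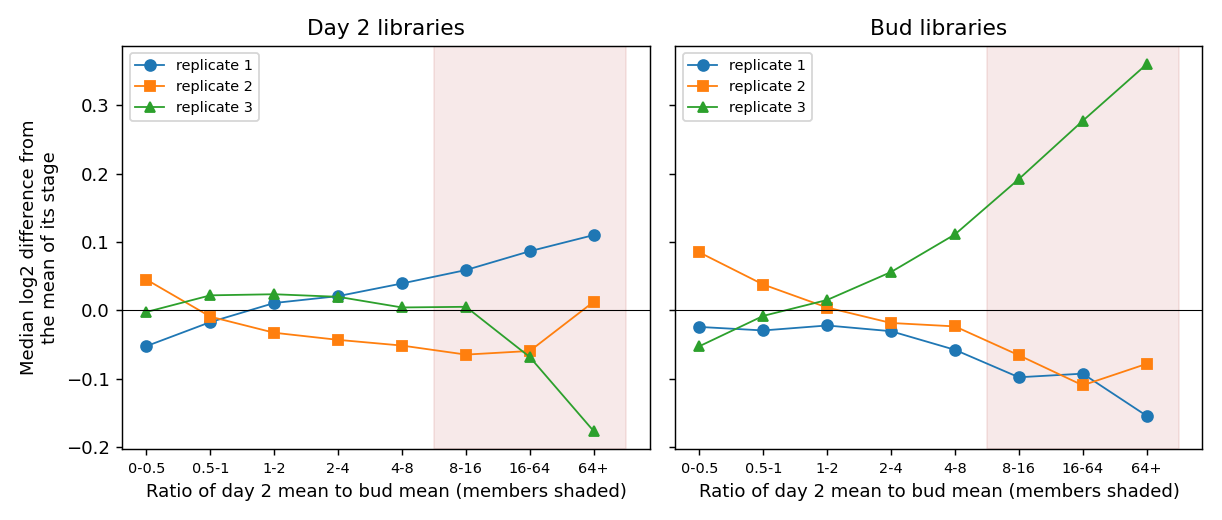
Median log2 difference of each library from the mean of its stage (vertical), for components at the floor grouped by the ratio of day 2 mean to bud mean (horizontal), with the day 2 libraries at left, the bud libraries at right and the bands of members shaded. Members with a count of 0 are left out. Bud replicate 3 climbs from -0.05 in the lowest band to 0.36 in the highest, and day 2 replicate 1 from -0.05 to 0.11.

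The members with the widest spread in buds made this visible one by one. The day 2 libraries of comp21372 had 81.3, 92.5 and 61.9 CPM, against 0.248, 3.15 and 6.90 CPM in its bud libraries. Its bud counts were 27, 323 and 866. The CV was 19.7% on day 2 and 97.2% in buds. For comp12994 the day 2 libraries had 39.5, 37.4 and 19.4 CPM, against 0.0368, 0.156 and 0.462 CPM in the bud libraries. In comp21372, comp12994, comp16580 and comp15319, the 4 members of highest bud CV with at least 30 bud counts, replicate 1 was lowest and replicate 3 highest. The most abundant member showed the lean as well, as comp20083 had 1677, 1784 and 3087 CPM in buds. Over members with at least 100 bud counts the median bud CV was 22.7% (183 members), against 6.63% in the others, where counting error would give 5.16% and 1.52%.

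Members were assembled into fewer and shorter contigs than other components of the open corolla. The 198 members comprised 797 contigs, with a median of 2 a component against 4 in the others. A single contig made up 60 members (30.3%) and 14.4% of the others. The longest contig had a median length of 1754 bp in members and 2572 bp in the others, with upper quartiles of 2327 and 3552 bp. Only 3 members had no contig of at least 500 bp, among them comp24501, a single contig of 203 bp with 38.2, 26.7 and 32.9 CPM on day 2, against 0.0644, 0.107 and 0.0957 CPM in buds. It was named after its values were seen.

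The most divided members were comp18901 with 47 contigs, comp20163 with 43, comp20083 with 38 and comp19920 with 35. Their counts were spread thin, the largest contig holding 10.8% of the day 2 level in comp18901, 34.0% in comp20163, 12.5% in comp20083 and 6.59% in comp19920. Over all 138 members of 2 or more contigs this share had a median of 53.1%. Contigs of one subcomponent, the level below the component, can share reads. Among subcomponents made of exactly 2 contigs of 1000 or more counts, the pair differed by at most 10% in every library in 9 of 53 cases in members and in 315 of 1381 in the others. Sums over contigs may then count a read more than once, and levels of much-divided components are to be read with that limit.

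Contigs of a member did not all behave alike. In members of 2 or more contigs, 626 contigs reached 1 CPM on day 2, and 503 of them had a ratio of 8 or more. Another 69 had a ratio from 2 to 8 and 54 a ratio below 2, of which 17 were below 1. The 54 came from 12 members, so that in the other members every such contig had a ratio of at least 2.

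Whether contigs took different shares of a component in the 2 stages was tested with edgeR's diffSpliceDGE. The rule used the sums of the same counts in the same libraries, though not the shares. A change of shares was called in 33 of 137 members tested (24.1%) at a Benjamini-Hochberg adjusted p below 0.05 over all components, against 18.5% of 10719 components tested. The share in members is thus near that of components in general. Components below the floor were also tested, so these percentages are not matched for abundance or for the size of the stage difference. The lowest adjusted p-values were 4.39e-46 for comp20163, 2.32e-43 for comp20083, 7.24e-28 for comp18901, 1.35e-27 for comp18100 and 9.29e-19 for comp13919. Within comp13919, the contigs comp13919_c2_seq1 and comp13919_c2_seq4 averaged 127.1 and 123.9 CPM on day 2 and 2.86 and 3.83 CPM in buds, whereas comp13919_c2_seq3 averaged 2.19 CPM on day 2 and 3.64 CPM in buds. The last of these held 0.808% of the day 2 level of the component and 27.7% of its bud level.

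The same test between subcomponents, which share reads less readily, called 11 of 22 members tested (50%), against 30.2% of 1804 components tested (edgeR's diffSpliceDGE with Benjamini-Hochberg adjustment). These percentages are not matched for abundance either. In 11 members, then, assembled sequences that the component lumps together differed in their change. Some of these sequences were minor. In comp20083 (adjusted p = 2.46e-11) and comp18901 (adjusted p = 1.05e-10) the leading subcomponent held 99.996% and 99.98% of the day 2 level, and 99.9% and 98.7% of the bud level.

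In 3 of them the bud level came largely from subcomponents whose day 2 mean was only 0.765 to 1.55 times their bud mean. Within comp13524 (adjusted p = 4.83e-08), subcomponent comp13524_c2 had 852.6, 926.7 and 899.5 CPM on day 2, against 0.589, 1.48 and 3.38 CPM in buds. Subcomponent comp13524_c0 had 11.3, 12.8 and 12.8 CPM on day 2, against 8.22, 8.21 and 7.37 CPM in buds. The component's ratio of 90.9 thus joined a ratio of 491 in comp13524_c2, which held 98.6% of the day 2 level and 18.3% of the bud level, with one of 1.55 in comp13524_c0, which held 79.7% of the bud level.

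Similarly, comp18100 (adjusted p = 5.66e-13) was made of a pair of unlike parts. Subcomponent comp18100_c1 had 3506, 3034 and 3010 CPM on day 2, against 37.0, 44.2 and 51.2 CPM in buds, a ratio of 72.1. Subcomponent comp18100_c0 had 35.8, 35.6 and 33.9 CPM on day 2, against 45.5, 42.5 and 49.7 CPM in buds, a ratio of 0.765, and every day 2 library lay below every bud library. It supplied 1.09% of the day 2 level and 51.0% of the bud level. The component's sum, at a ratio of 35.7, thus lay below the ratio of its abundant part.

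The third case, comp20163 (adjusted p = 3.36e-14), stood at the edge of the rule with a ratio of 8.12. Its subcomponent comp20163_c5 had 1272, 1179 and 559 CPM on day 2, against 4.35, 8.45 and 10.2 CPM in buds, a ratio of 130.6. Subcomponents comp20163_c3 and comp20163_c4 had ratios of 1.44 and 1.37 and together held most of the bud level, at 42.5% and 37.7%. The low value of day 2 replicate 3 in comp20163_c5 did not appear in comp20163_c3, which had 102.5, 107.8 and 120.5 CPM on day 2, against 77.2, 72.5 and 79.3 CPM in buds.

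**Figure D5:**
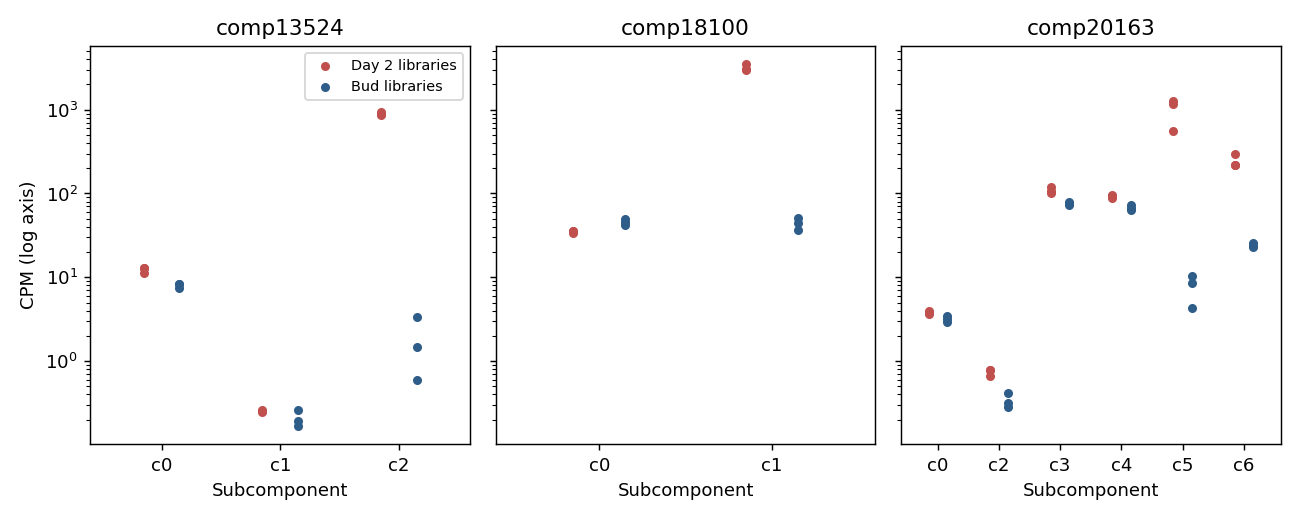
CPM (log axis) of each subcomponent of comp13524, comp18100 and comp20163 in the 3 day 2 libraries (red, left of each label) and the 3 bud libraries (blue, right). One subcomponent of comp13524 and of comp18100, and c5 and c6 of comp20163, carry most of the difference between stages. The stages differ far less in comp13524_c0 (ratio 1.55), comp18100_c0 (ratio 0.765), comp20163_c3 (ratio 1.44) and comp20163_c4 (ratio 1.37).

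In other members, of which a pair is given that was chosen after its values were seen, the parts had like ratios. Both subcomponents of comp12927 differed between stages by like factors, as comp12927_c0 averaged 679 CPM on day 2 and 6.38 CPM in buds (ratio 106.6), and comp12927_c1 averaged 298 CPM on day 2 and 3.003 CPM in buds (ratio 99.1). No difference of shares was detected there (adjusted p = 1 from the same test). In comp19230, comp19230_c0 and comp19230_c1 had ratios of 15.1 and 12.7 (adjusted p = 0.873), and the shares of the 2 were 50.2 and 49.8% on day 2 and 45.9 and 54.1% in buds. The shares of single contigs of comp19230 did change (adjusted p = 1.83e-05). A p above the threshold does not show that shares were equal.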

How the data were processed

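In the authors' pipeline, trimmed reads were built into a Trinity assembly, aligned to it with TopHat and tallied by HTSeq for each contig. The submitters' processing notes also name CASAVA 1.8.2 and Trimmomatic 0.22, whereas the methods name another trimmer. The deposited table holds unnormalized counts, beside contig lengths, and 0 sample columns were left out. The methods speak of reads with an unambiguous match to a gene feature, but the 6 deposited columns sum to 594478216 counts, more than the total of such reads stated there. Counts are therefore not taken as single reads, how pairs and multiple alignments entered them was not settled, and counting intervals may be too narrow.

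Counts were summed over contigs whose identifier is the same before "_c". Each library was divided by its median-of-ratios size factor, taken over the 29550 components with no 0, and then by the mean library total, and multiplied by 1000000. Libraries so scaled do not each sum to 1000000 CPM, and ratios of day 2 to bud are higher than with scaling by library totals. Size factors were 0.842 to 1.00 on day 2 and 1.03 to 1.27 in buds. Libraries were grouped by their titles. The stage test on components used edgeR 4.0.16 in R 4.3.3 (filterByExpr, TMM factors, glmQLFit and glmQLFTest with the stage as only term), and changes of share used diffSpliceDGE with Simes p-values per component. Alternatives used limma 3.58.1 and DESeq2 1.42.0. The edgeR tests of stage and of shares were first run on simulated counts with a set spread. Nothing about members is read from that. Nothing states that replicates came from separate plants. The p-values therefore weigh differences between stages against the spread between these pooled samples, which may not be that between plants. Intervals cover counting error only.

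Members, lists and tests were chosen with earlier results of these data known. Named were the 8 members highest per kilobase on day 2, the 5 largest and 5 smallest ratios, the 3 nearest misses of each threshold, the 4 highest and 3 lowest day 2 CVs, the 4 highest bud CVs (at least 30 bud counts), the 4 with most contigs, the 5 lowest p-values of each share test, and components named in the study. Exceptions are marked.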

Additional observations from a re-analysis of the deposited data

How the results depend on the processing

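The number of members depended on the limits of the rule. Of 198, it became 91 at a ratio of at least 16, 506 at a ratio of at least 4, and 126 where the lowest day 2 library had to reach 8 times the highest bud library. Scaling by library totals gave 128, all of them among the 198. With the largest contig of each subcomponent in place of all contigs it was 338, of which 192 were among the 198; the mean library total also falls there, so that the floor is met with fewer counts. Leaving out 1 library at a time gave 188 to 239, the most without day 2 replicate 3. Under that scaling by totals the median bud level of members was 9.31% of day 2, against 6.81%, and 6.04 to 7.14% with 1 library left out. Also under it, 4436 components were called higher on day 2, against 7165, and 6625 to 7162 with 1 library left out.

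The median day 2 CV of members was 11.8 to 13.6% with 1 day 2 library left out, where a CV over fewer libraries tends to be lower. It was 13.3% in members of at least 100 CPM, a limit chosen after seeing the data. Share changes were called in 31 to 33 members between contigs and in 10 to 11 between subcomponents with 1 library left out. Under the other settings they were called in 28 to 36 and in 10 to 11 members. In the main run they were called in 33 of 137 and 11 of 22 members tested, against 18.5% and 30.2% of components. Only members were counted under the alternatives, so no such background stands beside those counts. All 198 members were called higher on day 2 under every test and scaling run, against 29.0% of the components tested in the main run. Nothing is read from this, because the rule chose the members on the same contrast.

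Whether replicate numbers paired the libraries was not settled. Deviations from the stage means correlated at 0.01, 0.06 and 0.03 for replicates 1, 2 and 3, and at -0.05 to 0.02 between libraries of unlike number. Correlations this small do not show that the libraries were unpaired. With the replicate number as a block, 7002 components were called higher on day 2. All 198 members were among them, which repeats the contrast that chose them. Shares changed under the block in 35 members between contigs and in 11 between subcomponents. Without it the counts were 33 of 137 and 11 of 22 members tested, against 18.5% and 30.2% of all components tested. How many components in all changed shares under the block was not counted.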
